A study of Gallus gallus with 2 samples.

Results

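The cholesterol synthesis and uptake genes described here are HMGCS1, SQLE, FDFT1, IDI1, DHCR7, INSIG1 and SREBF2, chosen by name from the deposited gene tables. Of these 7 genes, 6 have a row under their name among the 26656 listed genes, and IDI1 was not analysed here. The libraries came from cultured chicken cells that the labels call SSCs, the testis stem cells that give rise to sperm. Testes were taken from embryos of eggs incubated for 18.5 days, digested with collagenase and then trypsin, and the cells were cultured in DMEM with serum. The shLSD1 library came from cells transfected with an interference vector against LSD1, a demethylase of lysine 4 on histone H3, and the Blank library from untreated cells, which received no vector. Each group had 1 library, made from 1 µg of total RNA. A difference between them therefore compares the 2 libraries only, and the interference, the transfection, the vector and the preparation cannot be told apart.

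Cells build cholesterol from acetyl-CoA through the mevalonate pathway. HMGCS1 makes HMG-CoA, the precursor of mevalonate, and the later enzymes turn mevalonate into isoprenoid units, squalene and then sterols. SREBP2, the product of SREBF2, is a transcription factor held in the endoplasmic reticulum by SCAP and INSIG proteins while sterols are plentiful. When sterols are scarce in mammalian cells it is cut free and raises transcription of nearly all of the pathway, of genes for cholesterol uptake and of INSIG1 itself. In the testis, cholesterol is also the starting material of steroid hormones.

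The listed reads summed to 8245826 in shLSD1 and 8731455 in Blank. KDM1A, which encodes LSD1, has 0 reads in either library both on its own row and on the assembled model over it, so these tables hold no reads to check the targeted gene by. Among 10 germ cell markers, 9 had a row, 4 had at least 20 reads over both libraries, and their summed level was 46.4 reads per 1000000 library reads (CPM) in shLSD1 and 50.5 CPM in Blank. DDX4 had 11 reads in shLSD1 and 23 in Blank, DAZL had 5 in shLSD1 and 8 in Blank, NANOS3 had 115 in shLSD1 and 92 in Blank, and NANOG is listed at 0 in each. Without SYCP3 the germ cell sum was 133 reads in shLSD1 and 132 in Blank, and most of it was NANOS3. TDRD9 had 7 reads in shLSD1 and 17 in Blank. SYCP3 was read from a model of 11412 bases that fills its span, where the annotated gene counts 956, so the model takes in introns. The own row of SYCP3 held 0 reads in shLSD1 and 3 in Blank. The model held 250 reads in shLSD1 and 309 in Blank, and rows on its opposite strand held 264 in shLSD1 and 283 in Blank. A model on the opposite strand of DDX4 held 1893 reads in shLSD1 and 2159 in Blank. Summed Sertoli markers stood at 287 CPM in shLSD1 and 237 CPM in Blank. Without CLDN11 the Sertoli sum was 99.3 CPM in shLSD1 and 93.3 CPM in Blank. Models on the opposite strand of CLDN11 held 1094 reads in shLSD1 and 822 in Blank. Summed peritubular and fibroblast markers stood at 1459 CPM in shLSD1 and 1853 CPM in Blank, nearly all of it from DCN and LUM. The other measured markers of that list, MYH11, COL1A2 and PDGFRA, had 54, 41 and 26 reads in shLSD1. In Blank they had 85, 54 and 34 reads. The cells were thus not germ cells alone, and in bulk RNA fewer cells of a type and less RNA per cell cannot be told apart.

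Where the reads of these genes were listed had to be settled first. SQLE and FDFT1 are counted deeply on their own rows. HMGCS1, DHCR7 and SREBF2 are listed at 0 reads in each library on their own rows, and INSIG1 at 1 read in shLSD1 and 0 in Blank. The tables also hold 9548 models that the authors assembled, and for each of these 4 genes a model lies over the gene on the same strand. Among the 65 sterol and lipid genes of the lists used here that have a row, 33 have such a model over at least 50% of both spans, and 29 of those 33 have 3 or fewer reads on their own row. Of the 32 genes without such a model, 8 have 3 or fewer reads. Below, a gene is therefore given by whichever of the 2 rows holds more reads, a choice made after seeing the data, and models that also met another annotated protein-coding gene on their strand were left out.

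**Figure D1:**
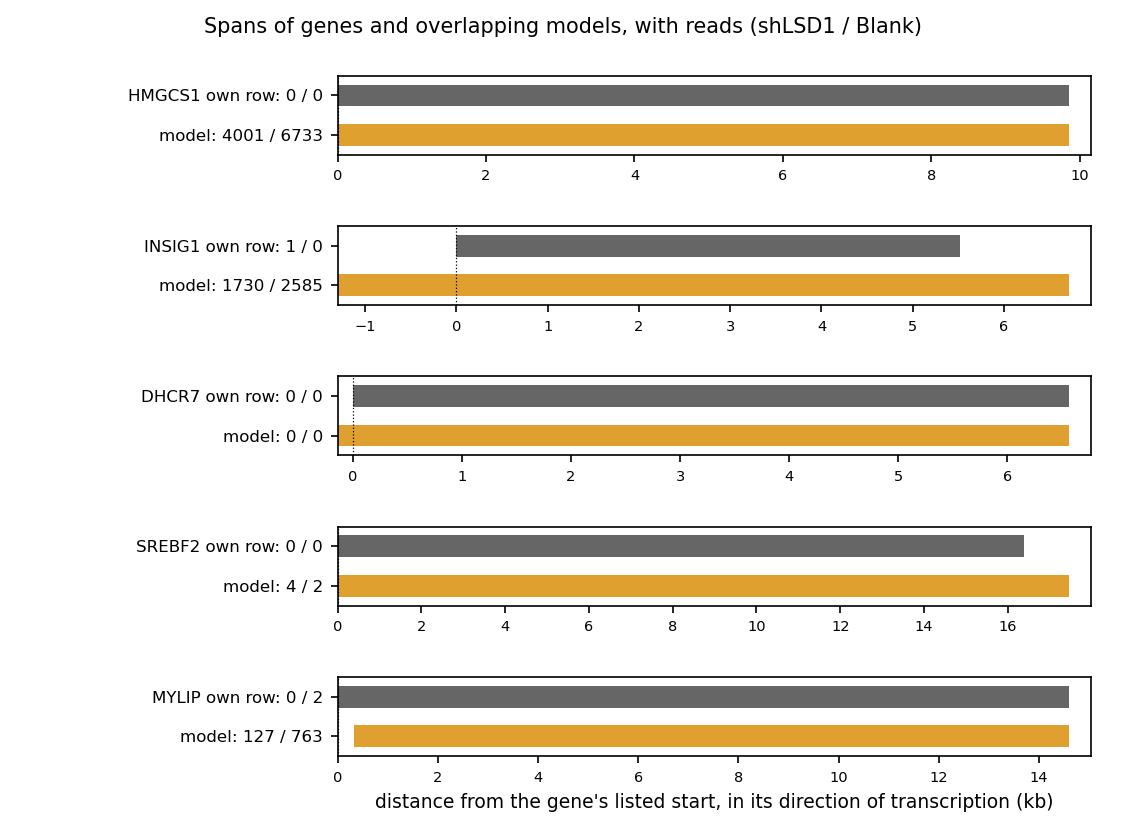
Spans of 5 genes (grey) and of the assembled models over them (orange), in kilobases from each gene's listed start in its direction of transcription, with the reads in shLSD1 and then in Blank on each row. The HMGCS1 model and gene share the same ends, and the model holds 4001 reads in shLSD1 and 6733 in Blank where the gene's row holds 0 in each. The HMGCS1 model counts 3574 bases and the annotated gene 1864.

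HMGCS1, the enzyme that joins acetyl-CoA to acetoacetyl-CoA to give HMG-CoA, differed most among the members with at least 20 reads. Its gene spans positions 13514301 to 13524158 of chromosome Z on the minus strand, as the files give coordinates, and the model with the same ends carries both domains of HMG-CoA synthase. The model is 3574 bases long where the annotated gene counts 1864, so it takes in bases that the annotated gene leaves out between those ends. That model held 4001 reads in shLSD1 (exact Poisson 95% interval 3878 to 4127) and 6733 reads in Blank (6573 to 6896). How many of these reads fall on the annotated bases is not known. As a rate this was 485 CPM in shLSD1 against 771 CPM in Blank, and the counting intervals do not overlap. The ratio of shLSD1 over Blank was -0.67 on the log2 scale (95% interval -0.73 to -0.61), so the level in shLSD1 was 1.59-fold lower, or 62.9% of that in Blank. Of the 6679 genes with 200 or more reads in sum, 1.00% had a lower ratio. These intervals and all those below hold counting error alone and treat each counted read alike. Whether PCR duplicates were removed before counting is not given in the sources used here. With 1 library a group no value has a replicate check.

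The next member along the pathway with reads was FDFT1, squalene synthase, which makes the first compound committed to sterols. FDFT1 spans positions 106985673 to 106996753 of chromosome 3 on the plus strand. Its row held 5997 reads in shLSD1 and 6840 in Blank, or 727 CPM in shLSD1 against 783 CPM in Blank. The log2 ratio was -0.11 (-0.16 to -0.06), close to the middle of all genes, with 35.4% of the deeply read genes lower. An annotated gene on the opposite strand overlaps it, with 78 reads in shLSD1 and 68 in Blank, and the use of strand in counting is not given in the sources used here.

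SQLE, squalene epoxidase, adds the oxygen that the sterol ring closure needs. It spans positions 138265073 to 138279203 of chromosome 2 on the plus strand, and no other listed gene overlaps it. SQLE had 3262 reads (3151 to 3376) in shLSD1 and 3513 reads (3398 to 3631) in Blank, which is 396 CPM in shLSD1 against 402 CPM in Blank. The log2 ratio was -0.02 and its interval, -0.09 to 0.04, holds 0. A difference smaller than that interval was not detectable at this depth.

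INSIG1, the endoplasmic reticulum protein that retains SCAP in sterol-fed mammalian cells, had the next lowest ratio of the measured members. Its gene spans positions 7827461 to 7832977 of chromosome 2 on the plus strand, and the model over it, which carries the INSIG domain, runs from 7826160 to 7834176. The model held 1730 reads (1649 to 1813) in shLSD1 and 2585 reads (2486 to 2687) in Blank, or 210 CPM in shLSD1 against 296 CPM in Blank. The log2 ratio of -0.50 (-0.59 to -0.41) fell short of 1.5-fold, and 2.78% of the genes with at least 200 reads had a lower one. INSIG2, the second INSIG gene, is in the same list and had a ratio of 0.01 with an interval of -0.27 to 0.29 on far fewer reads, 207 in shLSD1 and 218 in Blank.

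The remaining members gave almost no reads. SREBF2 spans positions 49351394 to 49367782 of chromosome 1 on the minus strand, and its model held 4 reads in shLSD1 and 2 in Blank. The log2 ratio of 0.93 had an interval of -1.72 to 4.55, too wide to give a direction. The microRNA gga-mir-33-1, which lies inside SREBF2, is listed at 0 in each library. DHCR7, the reductase of the last step to cholesterol, spans positions 1673770 to 1680338 of chromosome 5 on the plus strand and is listed at 0 on its own row and on its model in each library. A count of 0 allows up to 3 reads, or 0.364 CPM in shLSD1 and 0.344 CPM in Blank. Both limits cover counting error and not reads that were listed on another row.

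**Figure D2:**
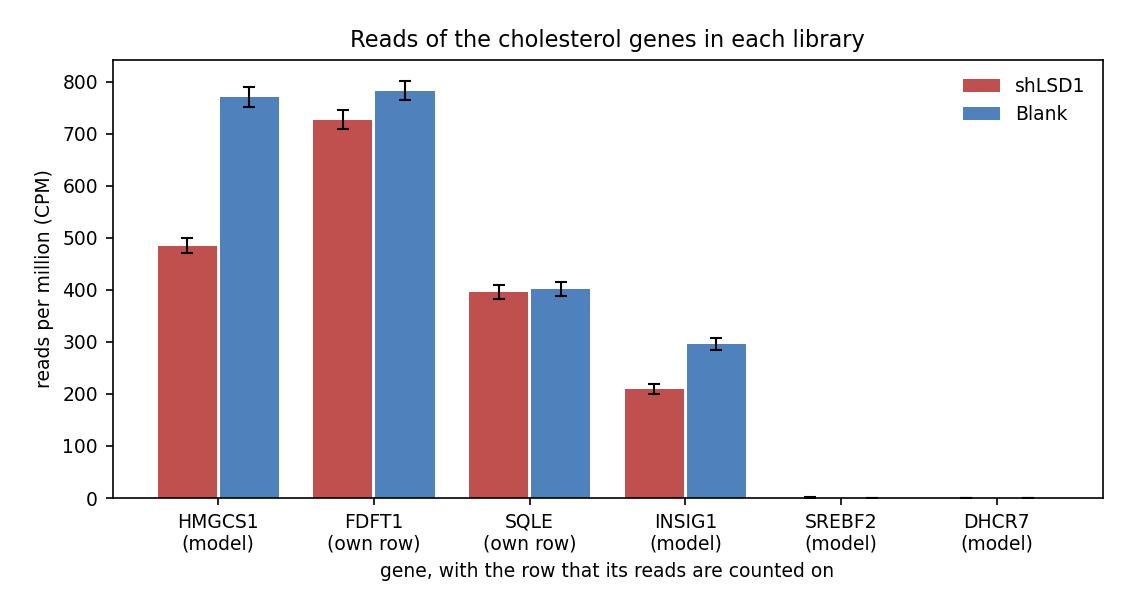
CPM of the 6 members with a row, on the row that holds more of their reads, in shLSD1 (red, left) and Blank (blue, right). Bars are single libraries and error bars are exact Poisson 95% intervals: HMGCS1 stands at 485 CPM in shLSD1 against 771 in Blank and INSIG1 at 210 against 296, while SQLE stands at 396 in shLSD1 against 402 in Blank.

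The members were not all lower by one factor. Ratios of reads between members inside a library do not depend on how the libraries are scaled, and all 6 pairs of the 4 measured members were compared, with exact conditional 95% intervals that are not adjusted for the number of pairs. For every 100 reads of SQLE there were 123 reads of HMGCS1 in shLSD1 and 192 in Blank, a log2 difference of -0.64 (-0.73 to -0.55). Against FDFT1, HMGCS1 had 66.7 reads per 100 in shLSD1 and 98.4 in Blank, a difference of -0.56 (-0.64 to -0.49). HMGCS1 and INSIG1 lay closest of the pairs with an interval off 0, at -0.17 (-0.28 to -0.07). FDFT1 and SQLE could not be separated, with a difference of -0.08 (-0.17 to 0.00). In all, 5 of the 6 pairs had an interval that leaves out 0. The 6 pairs reuse the same 4 genes, and the share over pairs of all genes was not computed. Log2 ratios of the 6679 genes with at least 200 reads had a standard deviation of 0.26. The count therefore cannot be read as particular to the members.

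Levels were compared per length. In shLSD1 the authors' FPKM values (reads per kilobase of gene and 1000000 library reads) were 277 for FDFT1, 153 for SQLE, 135 for HMGCS1 and 66.5 for INSIG1. In Blank they were 298 for FDFT1, 156 for SQLE, 214 for HMGCS1 and 93.7 for INSIG1. The lengths of HMGCS1 and INSIG1 are those of the assembled models, 3574 and 3139 bases. By these lengths HMGCS1 lay below SQLE in shLSD1 and above it in Blank. If all reads are kept and the 1864 bases of the annotated gene are taken, HMGCS1 would stand at 259 FPKM in shLSD1 and 411 in Blank. That is above SQLE in each library, and above FDFT1 in Blank only. INSIG1, with its 1582 annotated bases, would stand at 132 FPKM in shLSD1 and 186 in Blank, above SQLE in Blank only. How many of the reads fall on the annotated bases is not known. The order of levels thus depends on the length taken, and the ratio between libraries does not.

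Set against all genes, 1 of the 4 measured members was at least 1.5-fold lower and 0 were higher, a count too small to read against the background. Of the 12081 genes with 20 or more reads in sum, 6.38% were at least 1.5-fold lower and 7.04% at least 1.5-fold higher. With at least 200 reads, as all 4 members have, these shares were 1.59% and 1.39%. The counting interval lay below 0 for 3 of the 4 members and above 0 for none. Intervals off 0 were common. They lay below 0 for 15.4% and above 0 for 12.9% of genes with at least 20 reads. Among genes with at least 200 reads the shares were 22.2% and 17.1%. The 4 members hold 4315 to 12837 reads over both libraries, where intervals are narrower still. The share of genes off 0 at that depth was not computed, so the 3 of 4 cannot be read as an excess. The median log2 ratio of the 4 members was -0.30, beside a median of -0.02 over the 6679 deeply read genes. The members were chosen with earlier results of these data known, so the 2 medians are a description only. The median of the members rests on the models, since it was -0.066 on own rows alone and -0.11 with models of at least 90% reciprocal overlap. As single genes, HMGCS1 lay outside the central 95% of the deeply read genes, -0.51 to 0.49, and INSIG1 just inside it. Among the 2929 genes with at least 1000 reads the central 95% was narrower, -0.42 to 0.40. INSIG1 lay outside that range, with 1.06% of those genes lower.

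The wider pathway was uneven too. Of the 19 cholesterol synthesis genes in the list, 11 could be measured: 8 had a ratio below 0 and 3 above, 4 had an interval below 0 and none above, and 1, HMGCS1, was past 1.5-fold. Ratios below 0 made up 54.0% of all genes with at least 200 reads and 51.6% of those with at least 20. Intervals lay below 0 for 15.4% and above 0 for 12.9% of all genes with at least 20 reads. With at least 200 reads these shares were 22.2% and 17.1%. They are the background for the interval counts of this list and of those below. Intervals narrow as reads increase, and shares for the most deeply read genes were not computed. The median of the 11 genes was -0.02, beside -0.02 over the deeply read genes. Summed over the 11 genes, reads made up 0.393% of the library in shLSD1 and 0.460% in Blank.

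MSMO1, which removes methyl groups from the sterol ring, was the most counted gene of the list, with 9621 reads in shLSD1 and 13042 in Blank. Its ratio was -0.36 (-0.39 to -0.32). The list's 2 most counted genes, MSMO1 and FDFT1, both had intervals below 0. Intervals are narrow at such depth, and the share of equally deep genes off 0 was not computed. Among genes with at least 1000 reads, 4.30% had a lower ratio than MSMO1 and 30.5% a lower ratio than FDFT1.

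Several other steps lay near 0 within narrow intervals. MVD, which makes isopentenyl diphosphate, had 2933 reads in shLSD1 and 3141 in Blank and a ratio of -0.02 (-0.09 to 0.06). LSS, which closes the sterol ring, had 2593 reads in shLSD1 and 2653 in Blank and a ratio of 0.05 (-0.03 to 0.13). ACAT2, which makes the acetoacetyl-CoA that HMGCS1 uses, had 2281 reads in shLSD1 and 2324 in Blank and a ratio of 0.06 (-0.03 to 0.14). CYP51A1 and NSDHL, enzymes of sterol demethylation, had ratios of 0.02 and -0.01 with intervals holding 0. PMVK, the second kinase of mevalonate, had a ratio of -0.23 with an interval of -0.50 to 0.03, and LBR, whose product has sterol reductase activity, one of -0.20 (-0.39 to -0.01). MVK, FDPS and HSD17B7 are listed at 0 on their own rows in each library, and MVK also on its model. An assembled model on the strand of HSD17B7 overlaps it by too little to be taken under the overlap rule. Another listed gene overlaps FDPS on its strand. Reads of those 2 rows were not counted for HSD17B7 or FDPS, so a 0 for either does not show absent expression.

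**Figure D3:**
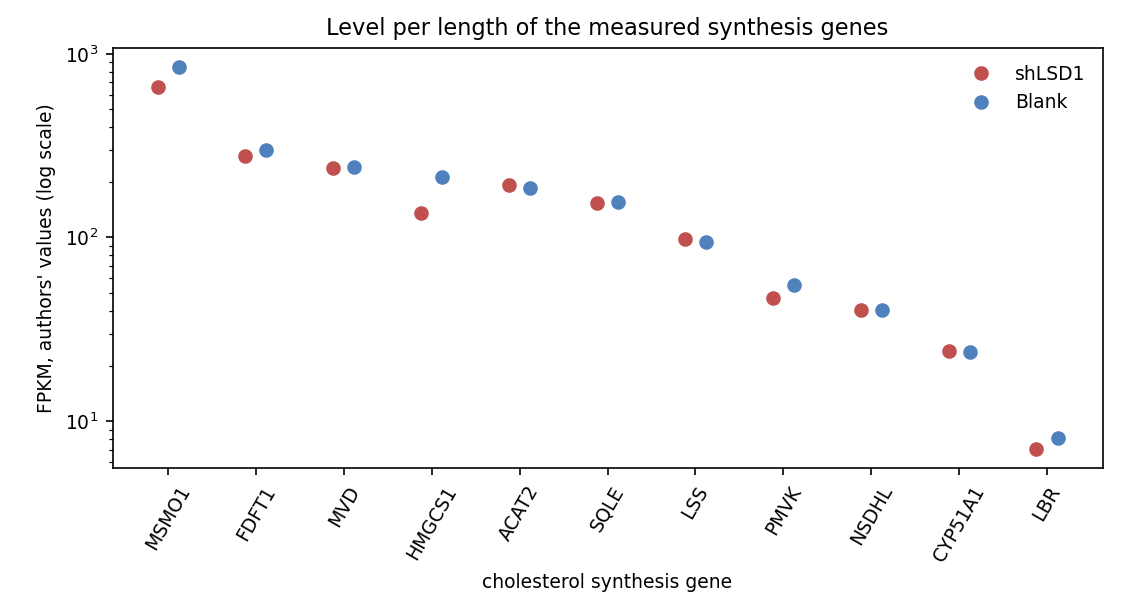
Authors' FPKM of the 11 measured cholesterol synthesis genes in shLSD1 (red, left) and Blank (blue, right), on a log axis, ordered by the level in Blank; each point is 1 library. HMGCS1 stands at 135 FPKM in shLSD1 and 214 in Blank, while the points of MVD, SQLE and LSS nearly coincide.

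In the list of sterol sensing genes, 8 of 12 could be measured and their median was 0.00, with 2 intervals below 0, none above, and none past 1.5-fold. Those 2 intervals were of INSIG1 and of RNF139, and the ratio of RNF139 was -0.19 (-0.33 to -0.05). SREBF1, which encodes the SREBP proteins best known for fatty acid synthesis, had 1400 reads in shLSD1 and 1485 in Blank on its model. The ratio was 0.00 (-0.11 to 0.10). That model is 7641 bases long, 65.9% of its span, where the annotated gene counts 3249 bases, so it takes in bases outside the annotated ones. Another listed row overlaps the model on its strand. Rows on the opposite strand held 41 reads in shLSD1 and 37 in Blank. SCAP, the escort of SREBP to the Golgi, had 29 reads in shLSD1 and 26 in Blank and a ratio of 0.24, with an interval of -0.57 to 1.06. MBTPS1, the protease that makes the first cut in SREBP, had 1470 reads in shLSD1 and 1669 in Blank. Its ratio was -0.10 (-0.20 to 0.00), with an interval that holds 0.

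The lowest ratio came from the uptake list. MYLIP is known in mammals as a ubiquitin ligase that lowers cholesterol uptake and is induced when sterols are plentiful. Its model held 127 reads in shLSD1 and 763 in Blank, or 15.4 CPM in shLSD1 against 87.4 CPM in Blank, and a log2 ratio of -2.50 (-2.79 to -2.23). Of the 6679 genes with at least 200 reads, 0 had a lower ratio. The gene's own row held 0 reads in shLSD1 and 2 in Blank. This model is 14022 bases long, which is 98.2% of its span, where the annotated gene counts 3104 bases, so the model takes in the introns. It carries the FERM domain that MYLIP has, and no other listed gene overlaps it.

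The other measured genes of uptake and lysosomal release lay between -0.19 and 0.19. NPC2 and LIPA, a lysosomal cholesterol carrier and the lysosomal lipase that frees cholesterol from its esters, were the most counted, with 2215 and 1512 reads in shLSD1 and 2207 and 1592 in Blank. Their ratios were 0.09 (0.00 to 0.17) and 0.01 (-0.09 to 0.11). NPC1, which exports cholesterol from lysosomes and is named after its values were seen, had 1333 reads in shLSD1 and 1613 in Blank and a ratio of -0.19 (-0.30 to -0.09). An annotated gene on the opposite strand of NPC1 held 550 reads in shLSD1 and 612 in Blank. In all 6 of 10 genes were measured, with a median of 0.05, 1 interval above 0 and 2 below. SCARB1 is listed at 0 in each library.

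Efflux, storage and oxysterol genes were measured for 8 of 12, with a median of 0.06, 1 interval above 0 and 1 below. ABCA1, the exporter of cholesterol to lipoproteins, had 33 reads in shLSD1 and 16 in Blank and a ratio of 1.10 (0.22 to 2.09). On FPKM with a pseudocount of 1 it was 0.27, no longer past 1.5-fold. On the opposite strand of ABCA1 lie rows with 1551 reads in shLSD1 and 1441 in Blank. ABCG5, a sterol exporter of liver and gut in mammals, had 10 reads in shLSD1 and 20 in Blank, a ratio of -0.88 with an interval of -2.18 to 0.25, and -0.21 on FPKM with that pseudocount. The most counted genes of the list were NCEH1, which frees stored cholesterol, with 712 reads in shLSD1 and 730 in Blank, and CYP7B1, an oxysterol hydroxylase, with 582 in shLSD1 and 731 in Blank. Their ratios were 0.05 (-0.10 to 0.20) and -0.25 (-0.41 to -0.09). APOA1 is listed at 0 on its own row and on its model in each library. NR1H3 is listed at 0 on its own row in each library. An assembled model on the strand of NR1H3 overlaps it by too little to be taken under the overlap rule. Reads of that model were not counted for NR1H3, so its 0 does not show absent expression.

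Of the fatty acid synthesis genes, 7 of 11 were measured, with a median of -0.19, 4 intervals below 0, none above, and none past 1.5-fold. Over all genes, intervals lay below 0 for 15.4% with at least 20 reads and for 22.2% with at least 200. FASN, fatty acid synthase, had 9880 reads in shLSD1 and 11912 in Blank, a ratio of -0.19 (-0.23 to -0.15). FADS2, a fatty acid desaturase, had 4364 reads in shLSD1 and 5415 in Blank, a ratio of -0.23 (-0.29 to -0.17). Both lie well inside the central 95% of deeply read genes. ACACA is listed at 0 on its own row. The assembled model over it also met another annotated protein-coding gene on its strand and was left out. Reads of that model were not counted for ACACA, so its 0 does not show absent expression.

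On the branches that lead from the mevalonate pathway to other products than sterols, 4 of 10 genes were measured, with a median of 0.05 that was -0.20 over the genes with at least 200 reads. FNTA, the shared subunit of the farnesyl and geranylgeranyl transferases, had 485 reads in shLSD1 and 692 in Blank and a ratio of -0.43 (-0.60 to -0.26). GGPS1, which makes geranylgeranyl diphosphate, had 164 reads in shLSD1 and 169 in Blank and a ratio of 0.04 (-0.28 to 0.36). DHDDS, a subunit of the enzyme that makes dolichol chains, was past 1.5-fold at 0.79 on 28 reads in shLSD1 and 17 in Blank, with an interval of -0.12 to 1.76, but at 0.30 on FPKM with a pseudocount of 1. PGGT1B is listed at 0 on its own row and on its model in each library. RABGGTB is listed at 0 on its own row in each library. An assembled model on the strand of RABGGTB overlaps it by too little to be taken under the overlap rule. Reads of that model were not counted for RABGGTB, so its 0 does not show absent expression.

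**Figure D4:**
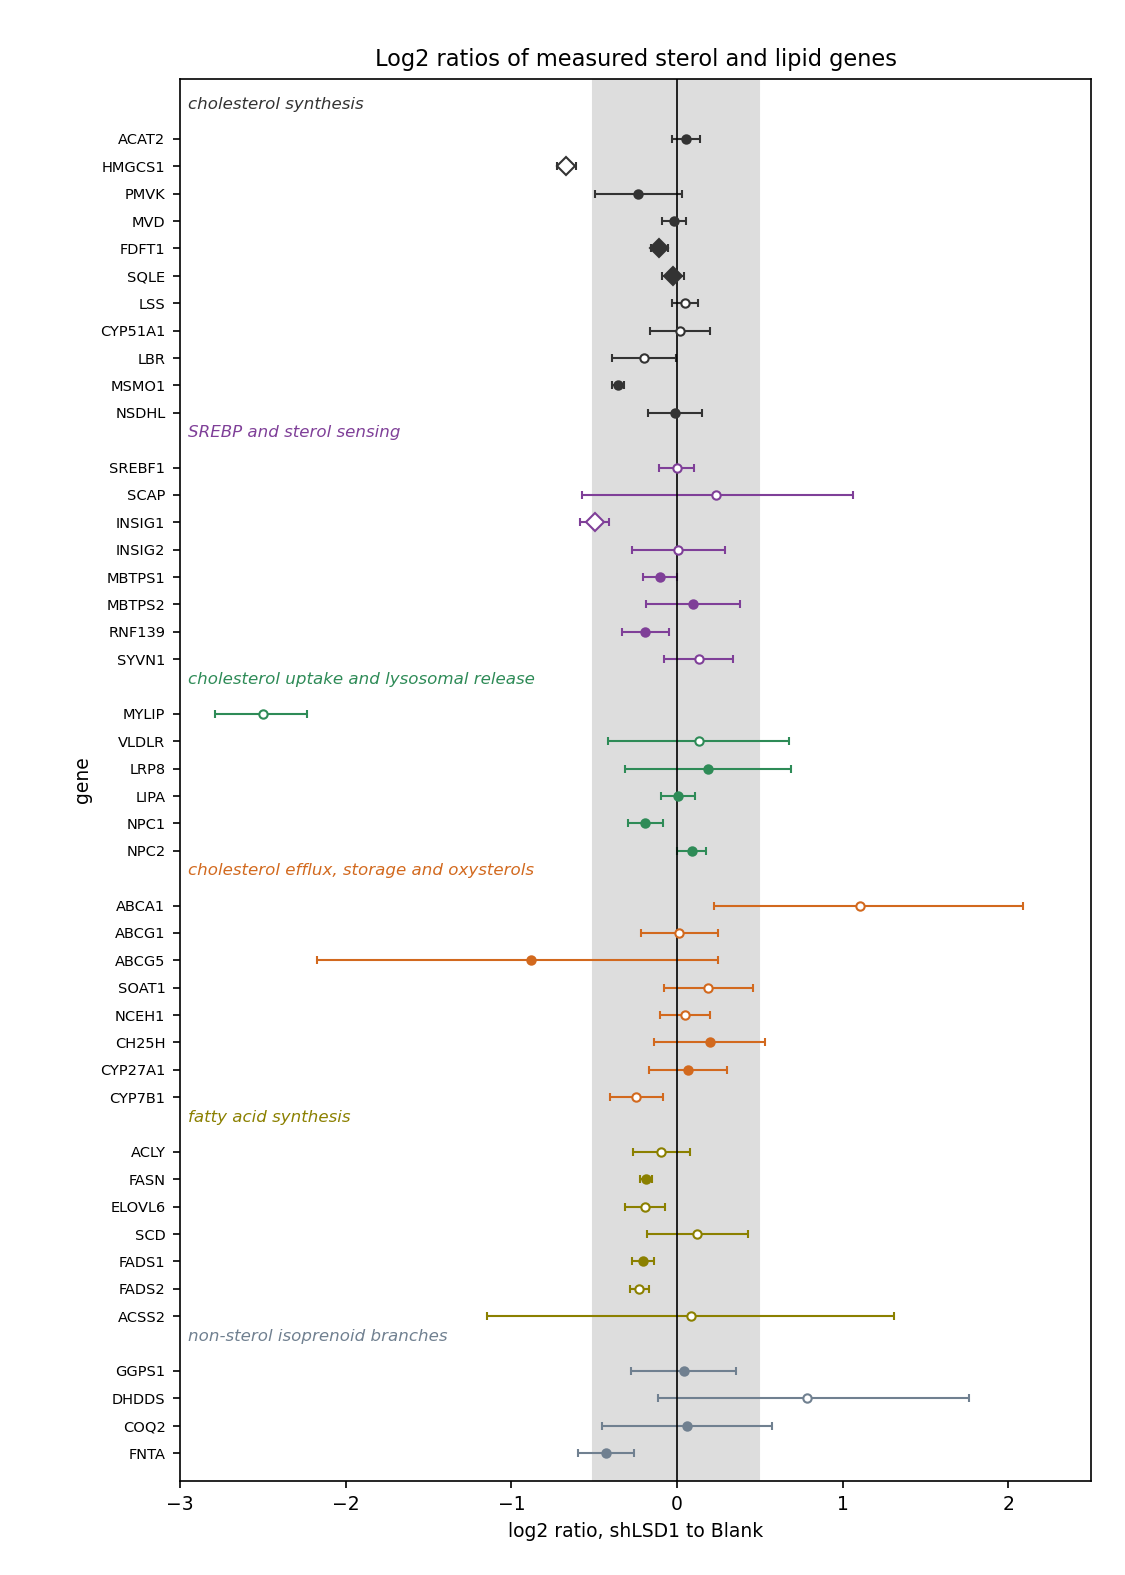
Log2 ratios of shLSD1 to Blank for the 44 measured genes of the 6 lists with exact 95% counting intervals; diamonds are members, open symbols are read from assembled models, and the grey band is the central 95% of the 6679 genes with at least 200 reads, -0.51 to 0.49. HMGCS1 at -0.67 and MYLIP at -2.50 lie left of the band with their whole intervals.

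**Figure D5:**
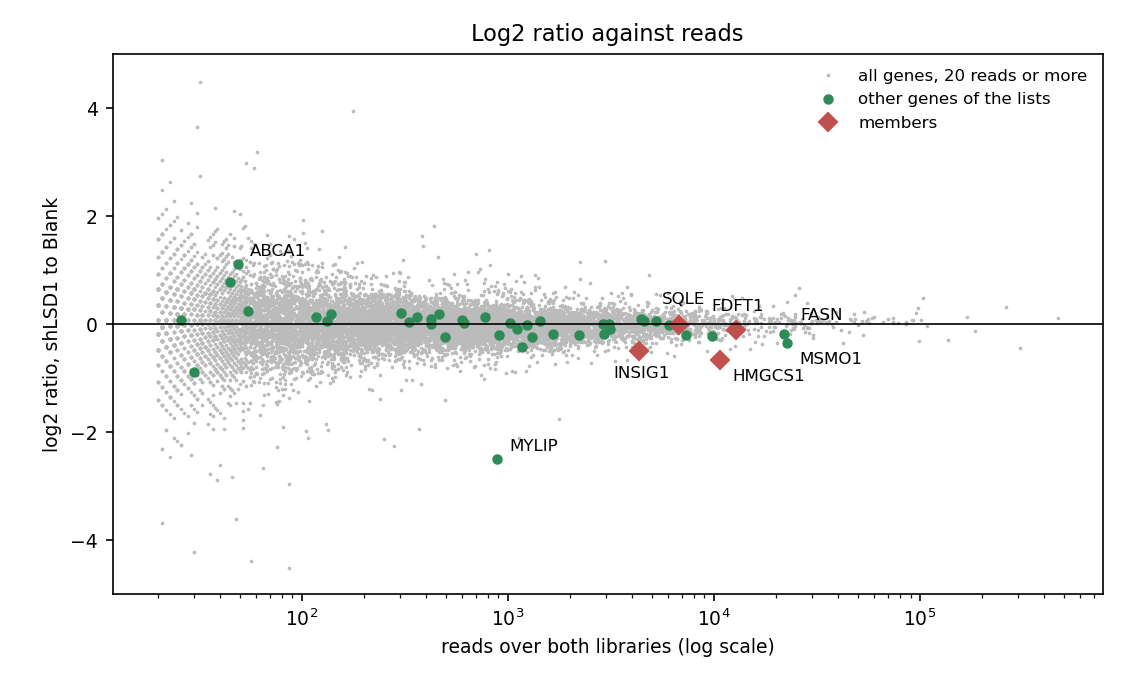
Log2 ratio of shLSD1 to Blank against the reads over both libraries (log axis) for all 12081 genes with at least 20 reads (grey), with members (red) and other listed genes (green). The spread of ratios narrows as reads increase, and HMGCS1, INSIG1 and MYLIP lie at or beyond its lower edge at their depth.

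Among markers of other cells, all 5 measured peritubular and fibroblast markers had ratios below 0, from -0.57 to -0.29, with 3 intervals below 0. Of all genes with at least 20 reads, 51.6% had a ratio below 0. Their intervals lay below 0 for 15.4% and above 0 for 12.9%. Among genes with at least 200 reads these shares were 22.2% and 17.1%. DCN and LUM hold 17107 and 10808 reads over both libraries, and the share at that depth was not computed. In the Leydig list, the cells that make steroids from cholesterol, the summed level was 68.2 CPM in shLSD1 and 83.8 CPM in Blank, with 1 interval below 0, that of CYP17A1, among 4 measured genes. Without CYP17A1 the sum was 182 reads in shLSD1 and 181 in Blank. Sertoli markers had a median of 0.14, with 2 intervals above 0 and none below. Macrophage markers summed to 31.4 CPM in shLSD1 and 28.9 CPM in Blank, and endothelial markers to 9.58 CPM in shLSD1 and 12.3 CPM in Blank. The part of these cells in the ratios of the cholesterol genes was not tested.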

How the data were processed

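RNA-seq of 2 libraries, 1 shLSD1 and 1 Blank, was used. The authors deposited a whole-number count of reads per gene without normalization and the FPKM of each gene; the totals, 8245826 and 8731455 reads, set the counting error. The submitters' processing notes name Bowtie 0.12.2 and the mouse builds mm8 and mm9, although the genes are chicken. The chicken build, the aligner settings and the counting tool are not given in the sources used here, and coordinates are those of the files. In the deposited count and FPKM tables, 4 value columns headed Control and MLL2_sh matched no sample and were not used. The authors' table of adjusted counts, log2 fold changes and p-values was not used.

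CPM (counts scaled to a common total over the listed genes), log2 ratios of shLSD1 over Blank (prior count 0.5), exact Poisson intervals and the Clopper-Pearson 95% interval of the ratio were computed. With 1 library per group no test across genes was run, and a gene was called when it was past 1.5-fold and had at least 20 reads over both libraries. Genes were found by name or description in the files, and a RefSeq table of assembly GRCg7b was used for names only. Assembled models were taken for genes by a reciprocal overlap of at least 50% on the same strand, a rule added after seeing the data; 3 models that met another annotated protein-coding gene were left out. The row under the name EBP is described as another gene and was left out.

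The members and lists were chosen with earlier results of these data known. Named are all members, SREBF1 and SCAP, listed genes past 1.5-fold, the 2 most counted genes of each list and those listed at 0. Some genes are not reported here and were left out of the lists and their counts. The other measured cholesterol synthesis genes, INSIG2, RNF139, NPC1 and gga-mir-33-1 were named after their values were seen. Promoters and proteins were not analysed here. The alternatives tried were scaling by upper quartile, by DESeq2's size factors, by TMM in edgeR or by totals that leave out the 20 most abundant genes, FPKM with a pseudocount of 0.1 or 1, other read and fold thresholds, and 5 as the prior count. The calculations were tested on simulated data. Calculations used scipy 1.17.1, numpy 2.4.6 and pandas 2.3.3 in Python 3.11.15, DESeq2 1.42.0 and edgeR 4.0.16 in R 4.3.3, and matplotlib 3.10.9 for plots.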

Additional observations from a re-analysis of the deposited data

How the results depend on the processing

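No paired analysis was possible because shLSD1 and Blank have 1 library each. Under the 7 alternatives of scaling, prior count and FPKM, the log2 ratio of shLSD1 to Blank stayed within its counting interval for the 4 measured members, between -0.68 and -0.64 for HMGCS1 and between -0.51 and -0.47 for INSIG1, and for every other measured gene except MYLIP, which was -1.78 on FPKM with a pseudocount of 1. SQLE crossed 0 within its interval, from -0.04 to 0.00. What decides most is the row that is read: the median over the members, -0.30, was -0.066 from own rows only, which leaves SQLE and FDFT1, and -0.11 with a reciprocal overlap of at least 90%, which drops INSIG1, or with no read filter, which adds SREBF2. These 2 overlap settings were added after seeing the data. With at least 200 reads the median was -0.092 for the uptake list and -0.20 for the isoprenoid list, against 0.05 in each. The synthesis median stayed near 0 and changed sign only under upper quartile scaling. The sensing median ran from -0.10 on own rows only to 0.096 with a reciprocal overlap of at least 90%. No alternative reversed a gene whose interval left out 0. Among all genes, 850 higher and 771 lower in shLSD1 became 322 and 284 on FPKM with a pseudocount of 1, 3247 and 2907 with no filter, 215 and 206 with at least 100 reads, 93 and 106 with at least 200 reads, 2352 and 2527 at 1.2-fold, 267 and 220 at 2-fold, and 435 and 356 on annotated genes only. At 2-fold HMGCS1, DHDDS and ABCG5 lose their calls. ABCA1, ABCG5 and DHDDS lose theirs on FPKM with a pseudocount of 1 and with at least 100 reads. Depth limits SREBF2, SCAP and ABCA1, and the spread between replicate cultures is unknown.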

Other observations

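Beside FDFT1 on chromosome 3, rows chosen after their values were seen had higher counts in shLSD1 while FDFT1 itself did not. NEIL2, a DNA repair glycosylase that ends just before FDFT1 begins, had 20 reads in shLSD1 and 3 in Blank, a log2 ratio of 2.63 (1.07 to 5.21). An assembled model with a papain family peptidase domain, just beyond the other end of FDFT1, had 76 reads in shLSD1 and 30 in Blank, a ratio of 1.41 (0.80 to 2.08). NEIL2 reaches the minimum of 20 reads only by its reads in shLSD1. Of all genes with at least 20 reads, 7.04% were at least 1.5-fold higher in shLSD1 and 12.9% had an interval above 0. Since both rows were picked by their values, their ratios and intervals are a description only.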
